A study of Homo sapiens with 12 samples.

Results

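The canonical histone genes code for the bulk histones H1, H2A, H2B, H3 and H4, and they were examined here in Hs 578T cells made to overexpress GFP or NRF2 and grown with or without Cyss. Members were all symbols beginning with HIST1 to HIST4 followed by H1, H2A, H2B, H3 or H4 whose mean normalized count reached 10 in any of the 4 groups, leaving out names that end in PS and a number. Of 89 such symbols, 13 had a PS name, 51 stayed below the limit, of which 15 had no read in any library, and 25 were members, out of 55242 genes in all. A normalized count is a read count divided by the relative depth of its library, so that libraries can be compared. The members were HIST1H1C and HIST1H1E for H1; HIST1H2AC, HIST1H2AE, HIST1H2AG, HIST1H2AI, HIST1H2AK and HIST2H2AC for H2A; HIST1H2BC, HIST1H2BD, HIST1H2BF, HIST1H2BG, HIST1H2BH, HIST1H2BJ, HIST1H2BK, HIST1H2BN, HIST1H2BO and HIST2H2BE for H2B; HIST1H3B, HIST1H3C, HIST1H3D and HIST1H3H for H3; and HIST1H4E, HIST1H4H and HIST1H4I for H4. Just inside the limit, the highest group mean was 10.5 normalized counts for HIST1H2AI, 10.6 for HIST1H2BO and 11.3 for HIST1H3B, and just outside it was 8.54 for HIST1H3E, 8.49 for HIST1H2BL and 7.80 for HIST4H4.

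Hs 578T is a triple-negative breast cancer line. It was transduced with lentivirus for GFP, the control, or for full-length NRF2, the transcription factor of the antioxidant response that the gene NFE2L2 encodes. Both lines were kept for 8 h in a medium without cystine (without Cyss) or in the same medium with 0.8 mM cystine added (with Cyss), and 3 libraries were sequenced from each of the 4 groups, GFP with Cyss, GFP without Cyss, NRF2 with Cyss and NRF2 without Cyss. All groups carried a lentiviral transgene, and nothing states whether the libraries of a group came from separate cultures, so p-values measure only the spread between these libraries, which may be technical.

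Most canonical histone genes lie in a few clusters, are copied in S phase when new DNA is packed into nucleosomes, and have no introns. H2A, H2B, H3 and H4 form the nucleosome core, around which DNA winds, and H1 binds the linker DNA between nucleosomes. Their mRNAs are unusual in ending not with a poly(A) tail but with a stem-loop, which the stem-loop binding protein SLBP holds and the U7 snRNP helps to cut. Outside S phase or when replication stops, these mRNAs are rapidly degraded. Some canonical genes also give longer, polyadenylated transcripts that reach past the stem-loop. The kit used here is made for mRNA with a poly(A) tail, so each value below is the amount of a histone RNA that entered the libraries, and what share of the total histone RNA that was has not been measured.

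NFE2L2 was checked first. Its normalized count ran from 3647 to 3841.5 in GFP cells with Cyss, from 4501 to 4655 without, from 6598 to 6940 in NRF2 cells with Cyss and from 7401 to 8396 without. It was higher in NRF2 than in GFP cells by 0.84 on the log2 scale with Cyss (edgeR quasi-likelihood test, adjusted p = 4.58e-10) and by 0.79 without (adjusted p = 6.38e-06), in the direction that the labels give. Reads on genes numbered between 27334061 and 44734611 per library, and the members together held between 2601 and 4609 of them. In NRF2 cells without Cyss, replicate 1 had 7.84% of its reads outside genes, against 5.82 to 6.69% in the other 11 libraries. The labels call the line epithelial. VIM, a marker of mesenchymal cells, lay between 142637 and 167992 normalized counts. Of the epithelial markers KRT18 lay between 773 and 1473, KRT14 between 607 and 996 and KRT8 between 151 and 233, whereas CDH1 reached 13.8, KRT5 6.0, KRT19 3.1 and EPCAM 1.0 at most.

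Of the 25 members, 23 were found in GENCODE 44 on GRCh37, the build that the authors' hg19 corresponds to, all of them under a newer name. HIST1H2BF and HIST1H2BG were not found and have no position here. The histone cluster on chromosome 6 held 21 members between positions 26031817 and 27861669, and HIST2H2AC and HIST2H2BE lay on chromosome 1. The annotation gave 17 members a single exon and 6 members more. All 23 had the histone stem-loop, searched on the gene's strand within 150 bases after the coding end as GG followed by 2 free bases, then CTTTT followed by 1 free base, then AG followed by 2 free bases and a closing CC, where only 0.327% of 19881 protein-coding genes had it. It began between 26 and 59 bases after the coding end. The stem-loops of the members on which the results turn are shown 5′ to 3′ on the strand of the gene, with the 16 bases of stem and loop in capitals. They lie at chr6:26055967-26055992 (HIST1H1C, minus strand), chr6:26124892-26124917 (HIST1H2AC, plus), chr6:27778289-27778314 (HIST1H3H, plus), chr6:27101289-27101314 (HIST1H2AG, plus), chr6:27114140-27114165 (HIST1H2BK, minus), chr6:26123695-26123720 (HIST1H2BC, minus), chr6:27100095-27100120 (HIST1H2BJ, minus), chr6:26158810-26158835 (HIST1H2BD, plus) and chr6:26285354-26285379 (HIST1H4H, minus).
HIST1H1C: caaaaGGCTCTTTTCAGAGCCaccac
HIST1H2AC: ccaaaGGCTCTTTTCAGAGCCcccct
HIST1H3H: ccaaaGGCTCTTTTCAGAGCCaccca
HIST1H2AG: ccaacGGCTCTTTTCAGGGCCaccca
HIST1H2BK: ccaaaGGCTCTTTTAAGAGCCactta
HIST1H2BC: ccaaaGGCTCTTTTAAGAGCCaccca
HIST1H2BJ: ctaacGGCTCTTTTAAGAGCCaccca
HIST1H2BD: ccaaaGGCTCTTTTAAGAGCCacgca
HIST1H4H: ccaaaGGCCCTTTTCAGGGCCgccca
The core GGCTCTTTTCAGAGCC was shared by 13 members, among them HIST1H1C, HIST1H2AC and HIST1H3H. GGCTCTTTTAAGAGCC was found in 4 members, all of class H2B, and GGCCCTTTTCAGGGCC in the 2 H4 genes HIST1H4E and HIST1H4H. The remaining 4 cores belonged to 1 member each.

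Several H2A and H2B genes stand head to head, and the stretch between the starts then serves both. Between 2 members this occurred 4 times, with 193 to 247 bases between the starts: HIST1H2BC with HIST1H2AC (chr6:26124155-26124399), HIST1H2BJ with HIST1H2AG (chr6:27100575-27100821), HIST2H2BE with HIST2H2AC (chr1:149858233-149858467) and HIST1H2AK with HIST1H2BN (chr6:27806154-27806346). HIST1H2BK, the member with the most reads, shares its start region (chr6:27114635-27114884) with HIST1H2AH, which stayed below the limit. HIST1H1C and HIST1H3H have no such partner, and the 250 bases before their starts lie at chr6:26056699-26056948 on the minus strand and chr6:27777579-27777828 on the plus strand. The shared regions are shown on the plus strand, with the first-named gene read to the left, and the regions of HIST1H1C and HIST1H3H on the strand of the gene. On either strand, capitals mark CCAAT boxes, TATA boxes (the letters TATAAA), the octamer ATTTGCAT and, in HIST1H1C, the H1 box AAACACA.
HIST1H2BC/HIST1H2AC: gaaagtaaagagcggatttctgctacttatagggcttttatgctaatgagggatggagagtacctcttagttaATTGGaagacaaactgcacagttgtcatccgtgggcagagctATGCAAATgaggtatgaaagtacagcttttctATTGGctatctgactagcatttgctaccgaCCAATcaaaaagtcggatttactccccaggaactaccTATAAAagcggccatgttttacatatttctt
HIST1H2BJ/HIST1H2AG: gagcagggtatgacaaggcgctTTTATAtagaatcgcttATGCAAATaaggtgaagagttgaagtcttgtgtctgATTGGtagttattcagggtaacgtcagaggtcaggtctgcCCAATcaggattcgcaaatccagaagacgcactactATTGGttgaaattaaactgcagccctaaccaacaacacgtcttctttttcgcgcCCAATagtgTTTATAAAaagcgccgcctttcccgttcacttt
HIST2H2BE/HIST2H2AC: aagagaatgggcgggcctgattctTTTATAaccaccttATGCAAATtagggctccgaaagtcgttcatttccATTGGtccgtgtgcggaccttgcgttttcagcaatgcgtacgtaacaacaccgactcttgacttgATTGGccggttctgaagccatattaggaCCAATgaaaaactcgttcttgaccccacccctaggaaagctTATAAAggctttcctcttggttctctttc
HIST1H2AK/HIST1H2BN: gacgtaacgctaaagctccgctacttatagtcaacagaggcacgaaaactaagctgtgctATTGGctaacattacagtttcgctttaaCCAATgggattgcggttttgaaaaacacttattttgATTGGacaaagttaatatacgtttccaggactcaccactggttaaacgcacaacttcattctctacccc
HIST1H2BK/HIST1H2AH: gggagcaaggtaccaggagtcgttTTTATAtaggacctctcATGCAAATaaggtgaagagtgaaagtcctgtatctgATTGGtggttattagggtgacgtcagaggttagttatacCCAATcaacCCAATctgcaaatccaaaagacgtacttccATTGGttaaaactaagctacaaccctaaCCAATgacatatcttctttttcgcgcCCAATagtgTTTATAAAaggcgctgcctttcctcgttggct
HIST1H1C: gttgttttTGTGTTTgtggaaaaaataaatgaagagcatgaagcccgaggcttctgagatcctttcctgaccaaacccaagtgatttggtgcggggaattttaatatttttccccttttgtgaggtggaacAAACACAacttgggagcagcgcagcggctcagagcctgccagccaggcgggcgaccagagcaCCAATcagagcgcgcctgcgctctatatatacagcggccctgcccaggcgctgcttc
HIST1H3H: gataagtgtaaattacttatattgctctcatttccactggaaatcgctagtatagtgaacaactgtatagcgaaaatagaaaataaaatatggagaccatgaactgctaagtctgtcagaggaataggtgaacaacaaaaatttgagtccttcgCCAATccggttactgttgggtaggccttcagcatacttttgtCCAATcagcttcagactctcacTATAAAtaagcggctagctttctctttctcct
Matches were counted on both strands, overlaps allowed, in the 250 bases before the start of 23 members and of 19881 genes. CCAAT stood before 21 members (91.3%, against 34.2% of all genes) and TATAAA before 15 (65.2%, against 9.26%). The octamer ATTTGCAT, known from H2B promoters as a site of the factor OCT1, stood before 10 members (43.5%, against 1.53%), all of them H2A or H2B genes. AAACACA stood before both H1 members (8.70% of the members, against 3.63%). TTTNGCGC, the core of an E2F site, stood before 5 members (21.7%, against 1.93%). TGACNNNGC, the core of the antioxidant response element that NRF2 binds, stood before HIST1H2AG, HIST1H2AK and HIST1H2BJ (13.0%, against 11.3%), and TGATGNAA, the core of a site of the stress factor ATF4, before 0 members, against 2.18% of all genes. Genes that stand head to head share most of this window, so 1 match can count for both. HIST1H2BJ and HIST1H2AG shared 1 TGACNNNGC and 1 TTTNGCGC in this way. The pairs with HIST1H2AC, HIST1H2AG and HIST2H2AC likewise shared 1 octamer each. The TGACNNNGC of HIST1H2AK did not lie between its start and that of HIST1H2BN. The percentages of members thus count some sites more than once. A match is only a run of letters.

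The members differed widely in level. Over all 12 libraries, HIST1H2BK held 28.3% of the members' reads, HIST1H2AC 19.2% and HIST1H1C 17.2%, so that these 3 genes held 64.7% and the other 22 held 35.3%. Per 1000 bases of annotated exon, the mean level over all libraries was 1897 normalized counts for HIST1H2BK, 785 for HIST1H1C, 381 for HIST1H2AC, 317 for HIST1H2AG and 208 for HIST1H2BD. At the other end it was 15.2 for HIST1H1E, which encodes another H1, and 14.3 for HIST1H2BN. The highest H3 level per 1000 bases was 57.1, for HIST1H3D, and the highest H4 level was 57.7, for HIST1H4E. Where models run past the stem-loop, as in 7 members with over 1000 exonic bases (HIST1H2AC, HIST1H2BC, HIST1H2BJ, HIST1H2BN, HIST1H3H, HIST1H4H and HIST2H2BE), the level per length depends on how much of the model the cells use. Some counts could also be too low. Reads that mapped to several places (6.08 to 6.81% per library) were tallied apart and given to no gene. The same held for reads on overlapping genes (3.16 to 3.38%). Of the 50-base stretches of the exons, 63.5% in HIST1H2AI, 57.2% in HIST1H2BK and 23.4% in HIST2H2AC occur in another gene too. Exons of HIST1H2BC overlap HFE on the other strand, which counting without regard to strand cannot separate. How many reads these members lost in this way was not tested.

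**Figure D1:**
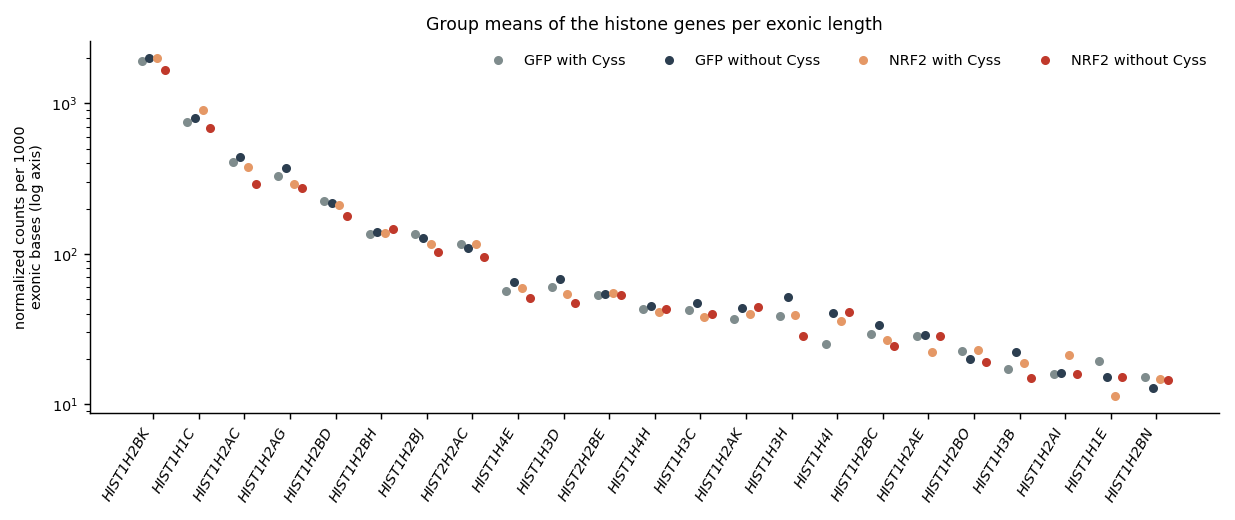
Group means of 23 members in normalized counts per 1000 exonic bases (log axis), ordered by the mean over all 12 libraries, with a point for each of the 4 groups. HIST1H2BK, HIST1H1C and HIST1H2AC lead, and the spread between genes is far wider than that between the groups of a gene.

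The first comparison asked how GFP cells responded to Cyss deprivation. No member was called in it. A gene was called when its adjusted p was under 0.1 and its log2 fold change above 0.32 in size. HIST1H1C, which encodes the linker histone H1.2, had 525, 559 and 572 normalized counts in the GFP libraries with Cyss and 578, 580.4 and 600.1 without. HIST1H2AC, an H2A gene, had 699, 666 and 689.8 with Cyss and 747, 768 and 697 without. HIST1H2BK, an H2B gene, had 899, 960.0 and 984 with Cyss and 949, 1029.8 and 1019 without. For HIST1H1C every library without Cyss lay above those with Cyss, and for the other 2 genes the groups overlapped. How often groups stand apart in this way among all genes was not counted, here or below. The fitted differences were 0.08 for HIST1H1C, 0.11 for HIST1H2AC and 0.07 for HIST1H2BK on the log2 scale, and none passed. Of 24 members tested (all but HIST1H2AI), 0 were called by edgeR's quasi-likelihood test and 0 by DESeq2, where 1.57% of 17452 genes were called higher and 0.533% lower. At an unadjusted p under 0.05 there was 1 member, HIST1H3H, an H3 gene, with 49.4, 39.5 and 56.0 normalized counts with Cyss and 55.0, 67.8 and 70.3 without (log2 difference 0.42 ± 0.17 (SE), adjusted p = 0.212). The median difference of the tested members was 0.08, against 0.00 for all genes, and their differences ran from -0.35 to 0.66. The highest belonged to HIST1H4I, with only 9.70, 15.7 and 4.37 normalized counts with Cyss and 19.0, 13.8 and 15.4 without.

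In NRF2 cells, Cyss deprivation lowered HIST1H1C and HIST1H2AC. HIST1H1C had 659, 663 and 647 normalized counts with Cyss and 453, 522 and 527 without. HIST1H2AC had 579, 664 and 645 with Cyss and 471, 519.6 and 472 without. In both genes every library without Cyss lay below every library with it. HIST1H1C fell by 0.39 ± 0.07 (SE) on the log2 scale, to 0.762 of its level (edgeR quasi-likelihood test, adjusted p = 0.000985), and HIST1H2AC fell by 0.37 ± 0.07, to 0.773 (adjusted p = 0.00193). These 2 were the only members called of 21 tested, both lower, by DESeq2 as by edgeR, where 5.14% of 17266 genes were called lower and 6.81% higher. HIST1H2AI, HIST1H2BG, HIST1H2BO and HIST1H3B were too low to be tested here. By adjusted p alone, 4 members passed, where 13.8% of all genes passed and were lower. The other 2 were H2B genes with smaller differences, HIST1H2BK with 1069, 920.1 and 973 normalized counts with Cyss and 789, 841 and 836 without (log2 difference -0.26 ± 0.07, adjusted p = 0.00923), and HIST1H2BD with 189, 177 and 179.8 with Cyss and 167, 147 and 146 without (-0.25 ± 0.10, adjusted p = 0.0997). HIST1H3H had a larger difference but a wider error, at 41.4, 59.2 and 47.1 normalized counts with Cyss and 30.8, 34.0 and 41.5 without (-0.48 ± 0.20, adjusted p = 0.105). The median of the tested members was -0.09, against -0.01 for all genes, and 13 of 21 lay below 0. In bulk RNA, fewer cells in S phase and less histone RNA in each of them cannot be told apart.

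With Cyss present, no member was called between NRF2 and GFP cells, of 25 tested, by edgeR's quasi-likelihood test or by DESeq2, where 1.36% of 17449 genes were called higher and 0.201% lower. At an unadjusted p under 0.05 there were 2, both H1 genes, which differed in opposite directions. HIST1H1C was higher in all 3 NRF2 libraries (659, 663 and 647 against 525, 559 and 572 normalized counts), by 0.25 ± 0.06 (SE) on the log2 scale with an adjusted p of 0.0227, under the fold limit. It was the only member to pass by adjusted p alone, where 4.15% of all genes passed and were higher. HIST1H1E had 8.53, 11.6 and 6.58 normalized counts in NRF2 cells and 13.2, 14.9 and 17.5 in GFP cells (-0.76 ± 0.32, adjusted p = 0.207), a difference of a few reads per library. The log2 differences of HIST1H2AC (-0.12, adjusted p = 0.296) and HIST1H2BK (0.06, adjusted p = 0.649) were smaller, and the median of the members was -0.05, against -0.0039 for all genes.

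Without Cyss, NRF2 cells had less RNA of 5 members than GFP cells. They were HIST1H2AC, HIST1H2AG, HIST1H2BC, HIST1H2BJ and HIST1H3H, hence genes of H2A, H2B and H3. They were called of 23 tested (all but HIST1H2AI and HIST1H2BO), all lower, where 4.09% of 17297 genes were called lower and 5.98% higher. DESeq2 called 4, all but HIST1H2BJ. The libraries without Cyss of the GFP and NRF2 cells also enter the comparisons above, so these results are not independent of them. HIST1H2AC had 747, 768 and 697 normalized counts in GFP cells and 471, 519.6 and 472 in NRF2 cells. It was lower by 0.61 ± 0.07 (SE) on the log2 scale, at 0.655 of the GFP level (edgeR quasi-likelihood test, adjusted p = 0.000299), the smallest adjusted p among the members. HIST1H3H had 55.0, 67.8 and 70.3 normalized counts in GFP cells and 30.8, 34.0 and 41.5 in NRF2 cells. Its fold, 0.551, was the lowest among the members called (-0.86 ± 0.18, adjusted p = 0.00666). HIST1H2AG, an H2A gene, had 188, 187 and 178 in GFP cells and 137, 129.9 and 139 in NRF2 cells (fold 0.728, log2 difference -0.46 ± 0.10, adjusted p = 0.00793). HIST1H2BC had 103, 107 and 80.2 in GFP cells and 71.2, 69.1 and 68.2 in NRF2 cells (fold 0.712, -0.49 ± 0.14, adjusted p = 0.0308). In these genes, and in HIST1H2BJ, every NRF2 library lay below every GFP library, which is not separate support for genes already called. HIST1H2BJ had the largest adjusted p among the calls, with 136, 119.5 and 144 in GFP cells and 113, 115 and 94.9 in NRF2 cells (fold 0.800, -0.32 ± 0.12, adjusted p = 0.0869), and it was lost when any of the 6 libraries was left out. The call of HIST1H2BC was lost without GFP replicate 1 (adjusted p = 0.115) or GFP replicate 2 (adjusted p = 0.144).

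Another 3 members passed by adjusted p alone without reaching the fold limit, which made 8, where 14.7% of all genes passed and were lower. HIST1H2BK had 949, 1029.8 and 1019 normalized counts in GFP cells and 789, 841 and 836 in NRF2 cells (-0.29 ± 0.06, adjusted p = 0.00555). HIST1H1C had 578, 580.4 and 600.1 in GFP cells and 453, 522 and 527 in NRF2 cells (-0.24 ± 0.07, adjusted p = 0.0344), whereas with Cyss it was the higher of the 2 in NRF2 cells. HIST1H2BD had 184, 192 and 184 in GFP cells and 167, 147 and 146 in NRF2 cells (-0.29 ± 0.10, adjusted p = 0.0584). Of the tested members 20 of 23 lay below 0, and their median was -0.24, against -0.02 for all genes. The H4 genes were among those that did not pass. HIST1H4H, with most reads of the 3, had 79.0, 107 and 106 normalized counts in GFP cells and 86.1, 91.7 and 98.9 in NRF2 cells (-0.08, adjusted p = 0.739), and HIST1H4E had 32.01, 20.7 and 27.5 against 22.3, 20.6 and 19.8 (-0.38, adjusted p = 0.286). Of the other H3 genes HIST1H3D had 40.0, 33.3 and 28.6 against 13.8, 28.9 and 27.7 (-0.54, adjusted p = 0.171). Replicate 1 of the NRF2 cells without Cyss had the larger share of reads outside genes. Among the members given here, it held the lowest value in its group of HIST1H1C, HIST1H2BK, HIST1H3H, HIST1H3D and HIST1H4H. It was also lowest for HIST1H2AC, though narrowly, and highest for HIST1H2BC, HIST1H2BD and HIST1H4E. Without that library 5 members were called, with HIST1H2BD in place of HIST1H2BJ, and HIST1H2AC stood at -0.58 and HIST1H3H at -0.76. HIST1H1C without it stood at -0.17 (adjusted p = 0.106).

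**Figure D2:**
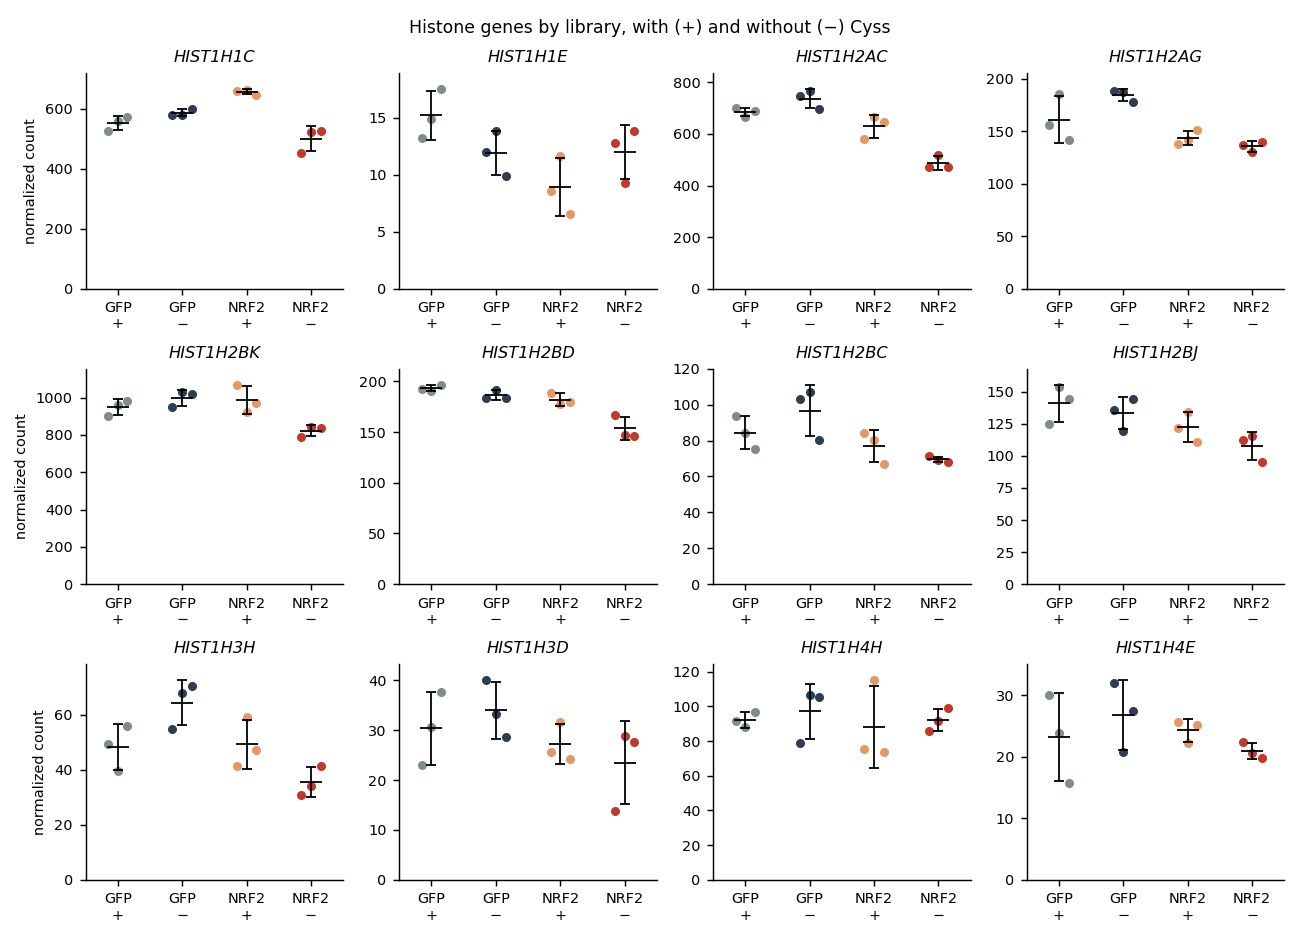
Normalized counts of the members of interest in each of the 12 libraries, with the mean and SD of each group of 3. HIST1H2AC falls from 737 ± 36.5 in GFP cells without Cyss to 487 ± 27.8 in NRF2 cells without Cyss, and HIST1H1C is highest in NRF2 cells with Cyss (657 ± 8.61) and lowest in NRF2 cells without (501 ± 41.3).

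The H2A and H2B genes that share a start region could be set side by side. In NRF2 against GFP cells without Cyss, both genes were called lower for HIST1H2BC and HIST1H2AC and for HIST1H2BJ and HIST1H2AG, whose shared regions are printed above. Of all genes, 4.09% were called lower. DESeq2 did not call HIST1H2BJ, and with 1 library left out it was called in 0 of 6 fits and HIST1H2BC in 4 of 6. Neither gene was called for HIST2H2BE and HIST2H2AC (log2 differences -0.03 and -0.21) or for HIST1H2AK and HIST1H2BN (0.01 and 0.15). HIST2H2BE had means of 119 ± 6.02 (SD, n = 3) normalized counts in GFP cells without Cyss and 118 ± 8.27 in NRF2 cells without Cyss, and HIST1H2BN had 54.8 ± 7.41 and 61.3 ± 0.834. HIST1H2AK had few reads, with means of 21.7 and 21.9 in the same order. All 4 regions hold CCAAT, and that of HIST2H2BE and HIST2H2AC also has the octamer and TATAAA, as do those of the called pairs. The counting ignored strand and the genes of a pair do not overlap each other in the models used. Exons of HIST1H2AC and of HIST1H2BC do overlap those of another gene, ENSG00000291336. It lies on the strand of HIST1H2AC. The part of that overlap in the values was not tested.

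Other properties of the members were read against the same comparison, after their values had been seen. The core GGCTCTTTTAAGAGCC belongs to HIST1H2BC, HIST1H2BD, HIST1H2BJ and HIST1H2BK, and these 4 H2B genes were the H2B members that passed by adjusted p alone, where 14.7% of all genes passed and were lower. Of these 4, only HIST1H2BC and HIST1H2BJ were called. Among H2B genes with the core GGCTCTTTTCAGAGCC the log2 differences were 0.06 for HIST1H2BH, 0.15 for HIST1H2BN and -0.03 for HIST2H2BE, and HIST1H2BO was not tested. The same core stands in HIST1H2AC and HIST1H3H, which were called, so the core and the call did not go together across classes. Of the 7 members with over 1000 exonic bases, 4 were called lower (HIST1H2AC, HIST1H2BC, HIST1H2BJ and HIST1H3H), and of 14 tested with shorter models 1 was (HIST1H2AG). Of all genes, 4.09% were called lower. By adjusted p alone 4 passed in each of the 2 sets, and the medians were -0.32 and -0.24. All 7 long members had a highest group mean of 50 or more, so length and read depth could not be told apart. Of the 13 members at that level 5 were called, and of 10 tested below it 0.

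The interaction asked whether the response to Cyss deprivation differed between NRF2 and GFP cells, over all 12 libraries, with an adjusted p under 0.1. It was called for 4 of 25 members, all below 0, where 6.13% of 17674 genes were called below 0 and 8.97% above, and DESeq2 called 3, giving no adjusted p for HIST1H3H. HIST1H1C had a response 0.48 ± 0.09 (SE) lower in NRF2 cells, going from 552 ± 23.9 (SD, n = 3) to 586 ± 12 normalized counts in GFP cells and from 657 ± 8.61 to 501 ± 41.3 in NRF2 cells (edgeR quasi-likelihood test, log2 difference -0.48, adjusted p = 0.00308). For HIST1H2AC the difference of responses was also -0.48 ± 0.09, with means of 685 ± 16.9 and 737 ± 36.5 in GFP cells and 629 ± 44.8 and 487 ± 27.8 in NRF2 cells (adjusted p = 0.0035). HIST1H2BK followed at -0.34 ± 0.09, with 948 ± 43.5 and 999 ± 43.6 in GFP cells and 987 ± 75.5 and 822 ± 28.7 in NRF2 cells (adjusted p = 0.02). HIST1H3H had the widest difference and the widest error, at -0.90 ± 0.27, with 48.3 ± 8.28 and 64.4 ± 8.21 in GFP cells and 49.2 ± 9.04 and 35.5 ± 5.49 in NRF2 cells (adjusted p = 0.0418). In each of these genes the GFP mean was higher without Cyss and the NRF2 mean lower. The call of HIST1H3H was lost without replicate 2 of NRF2 cells with Cyss (adjusted p = 0.126) or replicate 2 of GFP cells without (adjusted p = 0.103). Of all members, 20 of 25 lay below 0, with a median of -0.20, against -0.01 for all genes.

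**Figure D3:**
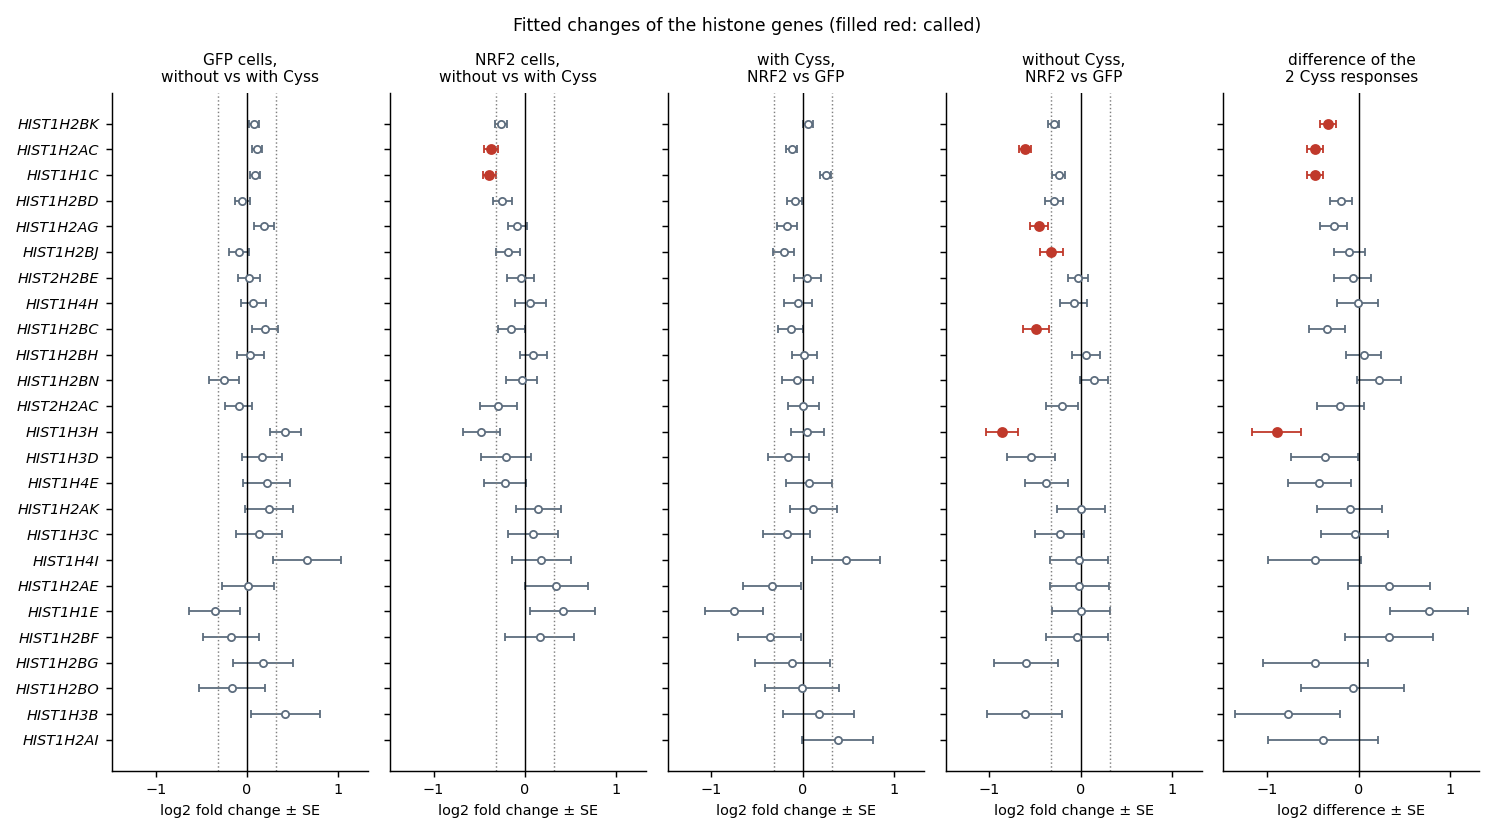
Fitted log2 differences with their SE for each member in the 4 comparisons and for the interaction, filled red where called. The members called in NRF2 against GFP cells without Cyss lie left of 0, as do the 4 called in the interaction, whereas in GFP cells and with Cyss no point is filled.

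Summed over all members, the normalized count was 3389.5 ± 85.2 (SD, n = 3) in GFP cells with Cyss, 3577 ± 82.2 in GFP cells without, 3415 ± 53.9 in NRF2 cells with Cyss and 2869 ± 90.4 in NRF2 cells without. The NRF2 libraries without Cyss, at 2766 to 2932, lay below all others, which began at 3291. Against NRF2 cells with Cyss the sum was 84.0% and against GFP cells without Cyss 80.2%. The sum of the 3 genes with most reads stood at 79.6% and 77.9% in these comparisons, and the sum of the other 22 at 92.8% and 84.5%. By class, in reads per 1000000 gene reads, the H1 genes averaged 16.98 in GFP cells with Cyss, 17.8 in GFP cells without, 20.02 in NRF2 cells with Cyss and 14.8 in NRF2 cells without. The H2A genes had 28.3, 30.4, 26.2 and 20.6 in the same order, and the H2B genes 49.2, 50.2, 49.5 and 41.2. The H3 genes had 3.23, 3.94, 3.14 and 2.48, and the H4 genes 3.75, 4.16, 3.81 and 3.73. For H4 the order of the groups depended on the scale, since in normalized counts the sums were 125 ± 7.34 (SD, n = 3), 139.9 ± 9.24, 127 ± 20.3 and 129 ± 1.49, so that NRF2 cells without Cyss were not the lowest.

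**Figure D4:**
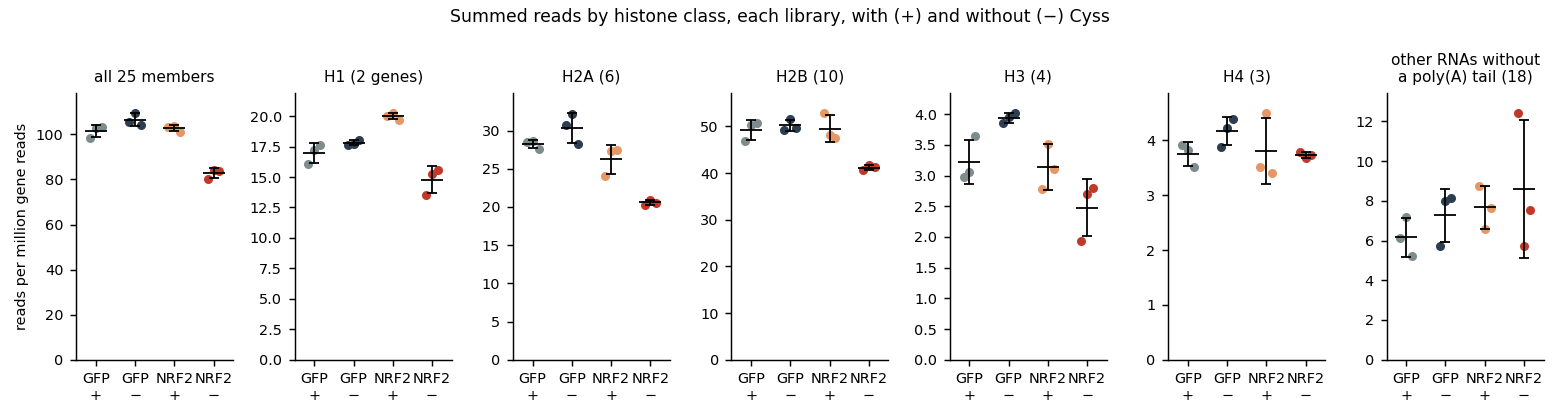
Summed reads of the members of each class per 1000000 gene reads, in each of the 12 libraries, with the mean and SD of each group. NRF2 cells without Cyss lie below the other groups in mean for H1, H2A, H2B and H3, and for H4 their libraries lie within the range of NRF2 cells with Cyss.

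Since histone mRNA lacks a poly(A) tail, other RNAs without such a tail were examined beside the histone genes. The 18 listed, among them RN7SK, RMRP and RN7SL1, summed to 6.17 reads per 1000000 gene reads in GFP cells with Cyss, 7.27 without, 7.66 in NRF2 cells with Cyss and 8.58 without. The mean of 8.58 rested on replicate 1 of the NRF2 cells without Cyss, at 12.4, and the other 2 libraries of that group had 5.74 and 7.56, within the range of 5.73 to 8.12 of the GFP libraries without Cyss. The libraries of all 4 groups overlapped in this sum. Few were high enough to be tested, from 4 to 6 of 18, and RN7SL1 alone was called, higher in NRF2 than in GFP cells with Cyss (edgeR quasi-likelihood test, log2 difference 0.51 ± 0.16 (SE), adjusted p = 0.0934). In that comparison 1.36% of all genes were called higher, and DESeq2 called 0 of the list. The part of these RNAs in the histone results was not tested.

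Genes that act with the histones were taken as lists. Of the histone variants, most of which are made outside S phase too and from polyadenylated mRNAs, although H2AFX also gives an mRNA ending in a stem-loop, 11 of 12 were tested and 0 were called by edgeR's quasi-likelihood test or by DESeq2 in any of the 4 comparisons, with 3 to 5 at an unadjusted p under 0.05. Their medians were 0.00 for GFP cells without against with Cyss, -0.07 for NRF2 cells, 0.00 for NRF2 against GFP cells with Cyss and -0.11 without. In the last of these all 11 tested lay below 0. In the interaction H2AFZ (-0.30 ± 0.06 (SE), adjusted p = 0.00539) and H2AFJ (-0.37 ± 0.11, adjusted p = 0.0383) were called below 0, where 6.13% of all genes were. Of 20 genes for histone mRNA synthesis and 3′ processing, 19 were tested and 0 were called in a comparison by edgeR or DESeq2, with 5 to 7 at an unadjusted p under 0.05. In the interaction edgeR called 0 and DESeq2 called 1, with 3 at an unadjusted p under 0.05. SLBP was lower in NRF2 cells without Cyss than in GFP cells without Cyss by 0.25 on the log2 scale (-0.25 ± 0.05, adjusted p = 0.00638) and UPF1, a helicase that takes part in histone mRNA decay, was higher by 0.22 ± 0.04 (adjusted p = 0.00494), both under the fold limit. Of all genes, 14.7% passed there by adjusted p alone and were lower, and the share that was higher was not counted. The median of the 19 genes in that comparison was -0.08, with 13 below 0 and 6 above.

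Among 20 histone chaperones and carriers, CHAF1B, a subunit of the assembly factor CAF-1, was called lower in NRF2 cells without Cyss, both against NRF2 cells with Cyss (-0.51 ± 0.06 (SE), adjusted p = 4.79e-05) and against GFP cells without (-0.43 ± 0.07, adjusted p = 0.00116). ASF1A, a chaperone of H3 and H4, was called lower in the first of these (-0.37 ± 0.06, adjusted p = 0.000379) and ATRX higher (0.33 ± 0.07, adjusted p = 0.00285). That made 2 lower and 1 higher of 20 in the first, where 5.14% and 6.81% of all genes were. In the second it was 1 lower of 20, where 4.09% of all genes were. DESeq2 called 3 and 1 of the list in the same order. In each of the other 2 comparisons 0 were called by edgeR and by DESeq2, with 4 at an unadjusted p under 0.05. The interaction was called for 2 above and 3 below 0, where 8.97% and 6.13% of all genes were.

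Genes of the cell cycle were examined by phase. Of 46 genes of S phase and DNA replication, 13 fell in NRF2 cells upon Cyss deprivation and none rose, where 5.14% of all genes were called lower, and their median was -0.24, against -0.01 for all genes. ORC1, a subunit of the origin recognition complex (-0.66 ± 0.06 (SE), adjusted p = 1.60e-06), PCNA, the sliding clamp (-0.41 ± 0.05, adjusted p = 1.80e-05), MCM3, of the replicative helicase (-0.37 ± 0.04, adjusted p = 1.80e-05), and UNG, a DNA glycosylase (-0.49 ± 0.06, adjusted p = 4.41e-05), had the smallest adjusted p-values. In GFP cells 2 fell, where 0.533% of all genes did, MCM10 (-0.34, adjusted p = 0.00139) and ORC1 (-0.40, adjusted p = 0.00332), with a median of -0.09. In NRF2 against GFP cells without Cyss 6 were lower, where 4.09% of all genes were, with a median of -0.20 and 45 of 46 below 0. With Cyss 0 were called by edgeR or DESeq2, with 13 at an unadjusted p under 0.05, a median of -0.04 and 33 of 46 below 0. The interaction was called below 0 for 14, where 6.13% of all genes were, and above 0 for 1, RRM2, the small subunit of ribonucleotide reductase (0.29 ± 0.05, adjusted p = 0.00288). Of 25 genes of G2 and mitosis, 4 were lower in NRF2 against GFP cells without Cyss, beside the same 4.09% of all genes, among them CCNB1 (-0.33 ± 0.06, adjusted p = 0.00243), and 1 rose in NRF2 cells upon Cyss deprivation, CENPF (0.34 ± 0.05, adjusted p = 0.00039). By edgeR and by DESeq2, 0 were called in GFP cells, with 7 at an unadjusted p under 0.05, and 0 in NRF2 against GFP cells with Cyss, with 19. In NRF2 against GFP cells the median of these 25 genes was -0.19 without Cyss, with 23 below 0. With Cyss it was -0.13, with 24 below 0. Their median response to Cyss deprivation was 0.01 in GFP cells and -0.06 in NRF2 cells. A lower level in NRF2 than in GFP cells was thus not particular to the S phase list. The interaction was called for 1 above and 4 below 0, where 8.97% and 6.13% of all genes were.

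Of 22 genes of G1 control and CDK inhibitors, 20 were tested. In NRF2 cells upon Cyss deprivation 4 rose and 1 fell, where 6.81% of all genes were called higher and 5.14% lower. CDKN1A, the CDK inhibitor p21, rose by 1.44 ± 0.10 (SE) on the log2 scale (adjusted p = 1.28e-07), MYC by 0.69 ± 0.05 (adjusted p = 6.49e-08), CCND1, cyclin D1, by 0.61 ± 0.05 (adjusted p = 2.26e-07) and CDK6 by 0.45 ± 0.08 (adjusted p = 0.00107), and CDKN2C, another CDK inhibitor, fell (-0.54 ± 0.06, adjusted p = 1.29e-05). In NRF2 against GFP cells without Cyss 4 were higher, where 5.98% of all genes were, and none was lower, and they were CCND1 (0.70 ± 0.09, adjusted p = 0.0004), MYC (0.50 ± 0.07, adjusted p = 0.00054), CDKN1A (1.01 ± 0.17, adjusted p = 0.00225) and CDK6 (0.48 ± 0.08, adjusted p = 0.00282). In GFP cells 1 fell, CDC25A, a phosphatase that activates CDKs (-0.38 ± 0.06, adjusted p = 0.00204). With Cyss 0 were called by edgeR or DESeq2, with 6 at an unadjusted p under 0.05. The interaction was called for 6 above and 1 below 0, where 8.97% and 6.13% of all genes were. The part of the cell cycle in the histone results was not tested.

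Markers of cell types were tested in the same way. Of 7 epithelial markers, 3 or 4 were high enough to be tested in a comparison. KRT18 rose upon Cyss deprivation in GFP (0.39) and NRF2 cells (0.66), where 1.57% and 6.81% of all genes were called higher. KRT14 (-0.52) and CDH1 (-1.27, with 3.1 to 13.8 normalized counts over the series) were lower without Cyss in NRF2 cells against GFP cells. Of all genes, 4.09% were called lower there, and DESeq2 called 1 epithelial marker. The interaction was called for KRT14 (-0.31), where 6.13% of all genes were called below 0. Of 7 mesenchymal markers, CD44 (0.41), ZEB1 (0.37) and AXL (0.33) rose in NRF2 cells upon Cyss deprivation, where 6.81% of all genes were called higher. In the interaction 3 of the 7 were called above 0, where 8.97% of all genes were, and none was called elsewhere. CD3E was at 0 in every library and CDH5 at 2.4 normalized counts at most. Of the 2 blood and endothelial markers tested, PTPRC, at 19 to 53 normalized counts, was lower in NRF2 against GFP cells without Cyss (edgeR quasi-likelihood test, -0.78, adjusted p = 0.033). There 4.09% of all genes were called lower, and DESeq2 called 0 of these markers. The part of these markers in the histone results was not tested.

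Members with few reads could not be ordered. HIST1H2AE, HIST1H2AI, HIST1H2BF, HIST1H2BG, HIST1H2BO, HIST1H3B and HIST1H4I had group means between 7.58 and 16.2 normalized counts, with libraries of a group up to several fold apart, such as 13.4, 12.7 and 3.29 for HIST1H2BG in NRF2 cells with Cyss. HIST1H3C lay slightly higher, with group means between 18.3 and 22.8, and HIST1H2AK between 18.3 and 21.9. HIST1H2BH, at 62.4 ± 3.78, 64.4 ± 7.71, 63.2 ± 1.71 and 67.3 ± 6.07 (SD, n = 3) in the 4 groups, had overlapping groups throughout. HIST2H2AC had 57.1 ± 1.39, 53.7 ± 7.98, 57.2 ± 14.4 and 46.9 ± 6.83 in the same order.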

How the data were processed

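Poly(A)-selected RNA libraries of Hs 578T cells, 12 in number, were sequenced single end. The authors mapped reads to hg19 with TopHat 2.1.0, counted them on exons with HTSeq 0.11.2 without regard to strand, and deposited raw counts per gene symbol for each library. The annotation used for counting is not given in the sources used here. Genes named as rRNA (523) were removed, as in the methods of the study, which left 55242. Counts were analysed in R 4.3.3 with edgeR 4.0.16, and figures drawn in Python 3.11.15 with matplotlib 3.10.9. For each comparison, genes whose mean normalized count was 10 or more in either of its groups were scaled by TMM and tested by edgeR's quasi-likelihood test on the 6 libraries concerned, with Benjamini-Hochberg adjustment over all genes tested. A call needed an adjusted p under 0.1 and a log2 fold change over 0.32 in size. The interaction used all 12 libraries and an adjusted p under 0.1. DESeq2 1.42.0, the tool of the study, was an alternative, together with other scalings, filters and thresholds, a replicate block and leaving out each library. The script was tested on simulated counts. Normalized counts printed per library were scaled over all 12 libraries. Values of genes in full follow a rule: members called in the interaction, the 2 members with most reads of each class, and those called in a comparison. Positions, models and sequences came from GENCODE 44 on GRCh37. The members, the lists of other genes and the tests were chosen with earlier results of these data known. Same-numbered libraries of different groups deviated from their group means with correlations of -0.03 to 0.14, over 0.1 in 1 of 12 pairs, so the numbers were not taken to pair libraries. With 80.1 to 109.7 member reads per 1000000 gene reads, the precision of low members is set by counting error.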

Additional observations from a re-analysis of the deposited data

Results flagged for a closer look

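In 4 members the response to Cyss deprivation differed between NRF2 and GFP cells by a test of the difference itself, the interaction over all 12 libraries in edgeR's quasi-likelihood test. The NRF2 response less the GFP response was -0.48 on the log2 scale for HIST1H1C, -0.48 for HIST1H2AC, -0.34 for HIST1H2BK and -0.90 for HIST1H3H. All groups held 3 libraries, so no test for a single deviating library was made.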

How the results depend on the processing

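Counts of called members kept within 1.5 times of the reported ones in all but a few settings. In NRF2 cells without against with Cyss, 4 members were called lower with scaling by library size only (HIST1H2BK and HIST1H3H in addition) and 4 with no fold limit, in place of 2. In NRF2 against GFP cells, 1 was called higher with Cyss with no fold limit, in place of 0, and 8 were called lower without Cyss, in place of 5. Leaving out each library in turn gave 3 to 5 in the latter, with 3 without replicate 2 of GFP cells without Cyss, 2 to 3 lower in NRF2 cells without against with Cyss, and 3 to 5 below 0 in the interaction. HIST1H2BK in NRF2 against GFP cells with Cyss changed sign, to -0.0060, without replicate 1 of NRF2 cells with Cyss, and ranged up to 0.10 when other libraries were left out. The call of HIST1H2BJ was lost in 11 of 16 settings, at log2 differences of -0.24 to -0.39, that of HIST1H2BC in 2 and that of HIST1H3H in the interaction in 3 of 20, whereas HIST1H2BK was called lower in NRF2 against GFP cells without Cyss by library size only and without replicate 1 of GFP cells without Cyss (-0.33 in both). The cause was not tested. HIST1H1C and HIST1H2AC kept their calls in NRF2 cells and in the interaction in all settings run, as did HIST1H2AC, HIST1H2AG and HIST1H3H without Cyss. Library size scaling moved the median of all genes to -0.07 in NRF2 cells. Over all genes DESeq2 called 105 in NRF2 against GFP cells with Cyss, where edgeR called 272. With the replicate number as a block, 3 members were called lower in NRF2 cells (HIST1H3H in addition), 5 in NRF2 against GFP cells without Cyss and 4 below 0 in the interaction, and it ended no call above; 5 of 12 pairs of same-numbered libraries correlated best with their own number. A limit of 50 in place of 10 normalized counts for the highest group mean left 13 members.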
